A study of Homo sapiens with 24 samples.

Results

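HCC827 cells that had not been given any tagged protein were precipitated with an antibody to the MYC tag and with an IgG isotype control. All 2449 peaks of these 2 lists are described here, 1005 with the MYC-tag antibody and 1444 with IgG, of 13347 peaks in the 8 peak lists of the series. Peaks were taken from the list of each antibody without any choice on their values. HCC827 is a human lung adenocarcinoma line with a mutated and amplified EGFR gene. The cells described were parental, wild-type in genotype and untreated, grown in RPMI-1640 medium with fetal bovine serum. Each list combines 2 replicates, which the protocol calls biological. Of the other 6 lists, 2 are from wild-type cells that resist osimertinib, a drug that inhibits mutant EGFR, kept in 1 µM of it, with the MYC-tag antibody or IgG. The other 4 are from parental or resistant cells that express METTL7A fused to MYC and FLAG tags, with the same antibodies. All groups share the same cell line, and the labels do not say how the METTL7A cells or the resistant cells were derived, as 1 clone or as a pool. That the wild-type cells lack the tag rests on the labels, because no file measures the tag.

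Chromatin immunoprecipitation followed by sequencing (ChIP-seq) collects DNA fragments that an antibody pulls down with the proteins fixed to them, and a peak is a place where fragments pile up. The MYC tag is a short stretch of the human transcription factor MYC, so an antibody to the tag can also meet MYC itself. MYC binds DNA as a pair with MAX, preferably at the E-box CACGTG, and occupies the promoters of many active genes. An IgG isotype control has no chosen target, so its peaks can come from DNA that is recovered whatever the antibody, such as open promoters and regions present in many copies. In cells without a tagged protein, the MYC-tag list against the IgG list therefore shows the signal that the antibody gives without its intended target.

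The E-box is shown first in the promoters of genes whose starts carried high peaks here, because it is the sequence that MYC itself binds. Each stretch holds the 250 bases before a gene start, 5′ to 3′ on the strand of the gene, from RefSeq in build GRCh38.p14, with CACGTG in capitals. CDK4 had a MYC-tag peak and no IgG peak, TBK1 and SEC61G had both, and EGFR is the driver gene of the line. The stretches are chr12:57752311-57752560 on the minus strand for CDK4, chr12:64451870-64452119 on the plus strand for TBK1, chr7:54759212-54759461 on the minus strand for SEC61G and chr7:55018767-55019016 on the plus strand for EGFR.
CDK4: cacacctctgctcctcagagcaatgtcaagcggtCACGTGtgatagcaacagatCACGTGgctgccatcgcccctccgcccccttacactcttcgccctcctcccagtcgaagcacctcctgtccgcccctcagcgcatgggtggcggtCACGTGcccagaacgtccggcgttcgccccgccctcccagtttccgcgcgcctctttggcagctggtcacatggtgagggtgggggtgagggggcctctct
TBK1: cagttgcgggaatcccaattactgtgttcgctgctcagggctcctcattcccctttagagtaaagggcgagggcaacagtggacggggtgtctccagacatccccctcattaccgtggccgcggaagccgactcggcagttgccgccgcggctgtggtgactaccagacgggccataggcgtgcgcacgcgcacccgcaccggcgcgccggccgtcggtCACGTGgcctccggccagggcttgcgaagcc
SEC61G: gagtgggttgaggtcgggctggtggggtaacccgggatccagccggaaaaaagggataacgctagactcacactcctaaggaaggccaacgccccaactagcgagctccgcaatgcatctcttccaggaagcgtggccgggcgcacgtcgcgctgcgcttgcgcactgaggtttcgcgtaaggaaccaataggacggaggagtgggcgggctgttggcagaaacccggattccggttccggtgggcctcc
EGFR: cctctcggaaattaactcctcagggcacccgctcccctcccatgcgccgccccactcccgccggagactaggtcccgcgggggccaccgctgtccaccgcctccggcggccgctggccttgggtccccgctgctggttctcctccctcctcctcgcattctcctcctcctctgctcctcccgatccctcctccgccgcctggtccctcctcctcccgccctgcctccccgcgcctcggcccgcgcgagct

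CDK4 carries the E-box 3 times, beginning 216, 196 and 101 bases before the start. TBK1 carries it once, 31 bases before the start, and the SEC61G and EGFR stretches do not hold these 6 letters. The motif reads the same on both strands. Among 35116 starts in the RefSeq table, 6.34% held CACGTG in the same 250 bases and 0.0797% held it 3 or more times. Of 22 placed genes with a peak at the start in either list, 10 had an entry whose bases could be read. The motif was held by 2 of the 10, CDK4 and TBK1, both shown above. Counted by starts, as in the 6.34%, it was 2 of 15. LANCL2 and B4GALNT1, whose starts carried the highest MYC-tag peaks, had no entry. VSTM2A, which is not shown, had a MYC-tag height of 13.4 at its start, above TBK1 and CDK4, and its entries did not hold the motif. A match describes the letters in the window and is not a measured binding site, and these letters come from another build than the peaks.

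The 2 lists were made mostly of low peaks. The height of a peak is given as the lower of the −log10 p-values of its 2 replicates, as the authors deposited them. It was 4.40 at the median of the MYC-tag list, from 3.0 to 15.6, and 3.70 at the median of the IgG list, from 3.03 to 20.8. Heights of separate lists are not on a common scale, because a p-value falls with sequencing depth, and the depth of these libraries is unknown from the files. The irreproducible discovery rate (IDR) compares the ranks of a peak in 2 replicates, and 0.05 or less is the usual limit for a reproducible peak. That limit was met by 26 MYC-tag peaks (2.59%) and 31 IgG peaks (2.15%). At a height of 5 or more the lists were alike in number, with 242 MYC-tag and 252 IgG peaks, and at 9 or more they held 27 and 19. Taken over the whole genome, the IgG list was thus longer mainly in peaks below 5. This near-equal number at 5 or more joined 93 MYC-tag and 38 IgG peaks around EGFR with 149 and 214 elsewhere. Away from EGFR the IgG list was therefore the longer at a height of 5 or more as well. At the IDR limit the counts away from EGFR were 8 MYC-tag and 15 IgG peaks, and at a height of 9 or more they were 7 and 7. Median widths were 632 bp for MYC-tag and 594.5 bp for IgG, and the lists covered 743 and 951 kb of the genome.

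Many peaks away from EGFR had p-values that recurred exactly. In the MYC-tag list, 230 peaks shared a −log10 p of 4.66597 in the first replicate in the file, and 174 shared 4.70652 in the second. In the IgG list, 327 shared 3.70401 in the first replicate and 272 shared 4.75441 in the second. Peaks whose value recurred in at least 10 peaks in both replicates made up 56.5% of the MYC-tag list (568 of 1005) and 67.7% of the IgG list (977 of 1444). None of the 128 MYC-tag and none of the 60 IgG peaks around EGFR was of this kind. Away from EGFR, peaks with recurring values overlapped the other list less often, 8.80% of 568 against 16.5% of the remaining 309 MYC-tag peaks and 5.83% of 977 against 11.3% of the remaining 407 IgG peaks. The files do not say what gives these values. The plot of first against second replicate shows them as a grid of grey points.

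**Figure D1:**
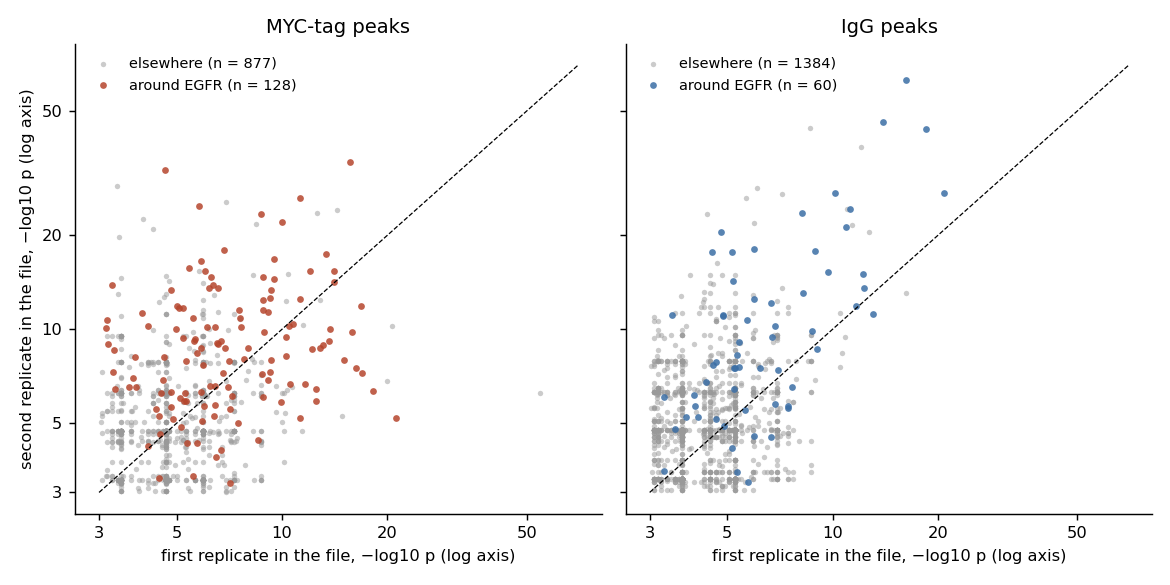
−log10 p of every peak in the first replicate (horizontal, log axis) and the second replicate of its list (vertical, log axis), with MYC-tag peaks on the left, IgG peaks on the right, peaks at 54 to 56 Mb of chromosome 7 in colour and the others in grey, and the dashed line marking equal values. Grey points fall on a grid of repeated values, and 48 of the 60 coloured IgG points lie above the line.

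The replicates of a list ranked its peaks weakly alike. Spearman's rank correlation between the 2 replicates, across peaks that share their libraries and are not independent, was 0.217 in the MYC-tag list and 0.141 in the IgG list. Around EGFR it was 0.199 for MYC-tag and 0.550 for IgG, and elsewhere 0.109 and 0.0930. The higher value came from the second replicate at 48 of 60 IgG peaks around EGFR (80%) and at 84 of 128 MYC-tag peaks there (65.6%). Elsewhere it did so at 434 of 877 MYC-tag peaks and 810 of 1384 IgG peaks. Which culture fills which columns is not given, so the difference cannot be tied to a sample.

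Few positions were common to both antibodies. An overlap of at least 1 bp was found for 153 of 1005 MYC-tag peaks (15.2%, exact 95% binomial interval 13.1 to 17.6%) and for 156 of 1444 IgG peaks (10.8%, interval 9.25 to 12.5%). These and all further intervals cover counting error only. Peaks that lie side by side cannot be taken as independent. With 1 list for each antibody, no comparison between the antibodies has a replicate check, and none is given a p-value. The region around EGFR, 54 to 56 Mb of chromosome 7, set the overlap apart. There 53 of 60 IgG peaks overlapped a MYC-tag peak (88.3%, interval 77.4 to 95.2%), and 52 of 128 MYC-tag peaks overlapped an IgG peak (40.6%, interval 32.0 to 49.7%). Elsewhere the shares were 7.44% of 1384 IgG peaks and 11.5% of 877 MYC-tag peaks.

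Higher peaks were shared more often in both lists. Around EGFR, 6 of 35 MYC-tag peaks below a height of 5 overlapped an IgG peak (17.1%, interval 6.56 to 33.6%), against 46 of 93 at 5 or more (49.5%, interval 38.9 to 60%). Elsewhere these shares were 9.34% of 728 and 22.1% of 149. For IgG the share around EGFR was high at any height, with 17 of 22 below 5 and 36 of 38 at 5 or more. Elsewhere it was 5.56% of 1170 below 5 and 17.8% of 214 at 5 or more. All 12 IgG peaks of height 9 or more around EGFR had a MYC-tag peak, and 15 of the 20 MYC-tag peaks of that height there had an IgG peak. On either side of a height of 5, the IgG share around EGFR was above that elsewhere, with intervals that do not overlap. In the finer classes of 7 to 9 and of 9 or more, which hold 5 and 12 IgG peaks around EGFR, the intervals do overlap.

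**Figure D2:**
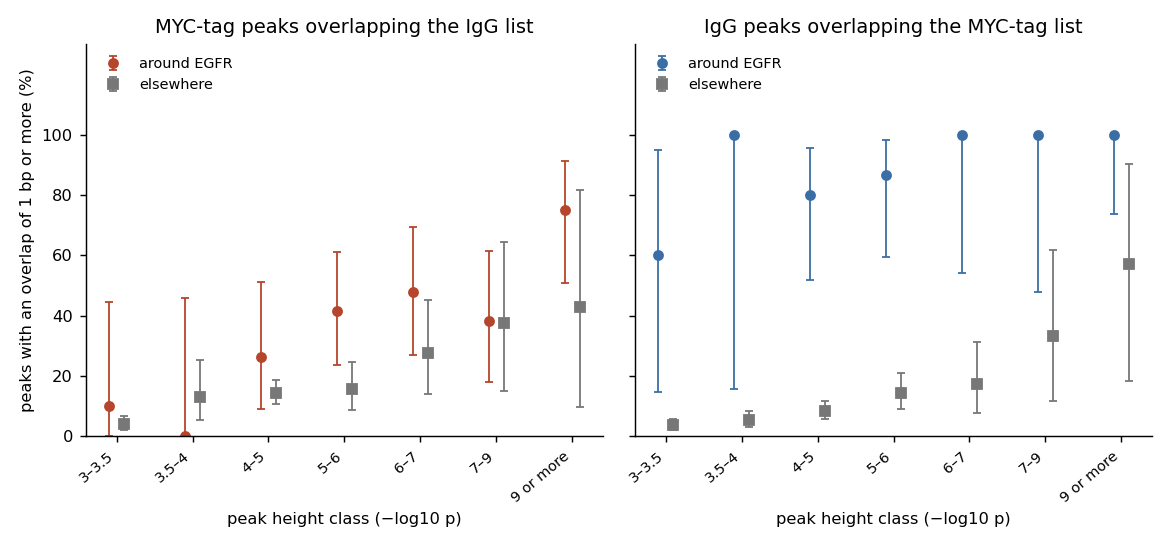
Percentage of peaks that overlap a peak of the other list (vertical) by class of height in −log10 p (horizontal), for MYC-tag peaks on the left and IgG peaks on the right, with circles for 54 to 56 Mb of chromosome 7, squares for all other places and bars for exact 95% binomial intervals. IgG peaks around EGFR sit at 60% or more in every class, above the squares.

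EGFR encodes the receptor tyrosine kinase on which HCC827 cells depend, and its neighbours VSTM2A, SEC61G, LANCL2 and VOPP1 lie within the same 2 Mb. MYC-tag peaks were more numerous there than IgG peaks, 128 against 60, although the IgG list was the longer. They made up 12.7% of the MYC-tag list (interval 10.7 to 15%) and 4.16% of the IgG list (interval 3.19 to 5.32%). Many of these peaks lie close together, and with peaks within 10 kb joined the shares were 4.14% and 2.27%. The difference held among equal numbers of the highest peaks. Of the top 50 peaks, 37 of the MYC-tag list and 18 of the IgG list lay there, and of the top 100, 58 and 25. Among the top 250 the counts were 99 and 38. A region in many copies gives more fragments from any library, and the part of copy number in this count was not tested.

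The excess of MYC-tag peaks lay both within the EGFR gene and in the rest of the region. The gene body held 49 of the 128 MYC-tag peaks of the region, 29 of them without an IgG peak. It held 21 of the 60 IgG peaks, every one of them overlapped by a MYC-tag peak. The part of the peaks that lay in the gene was thus similar for both antibodies. In the 100 kb from 55.1 to 55.2 Mb, which lies in EGFR, there were 28 MYC-tag and 7 IgG peaks. From 55.2 to 55.3 Mb there were 19 and 12, and 9 of the 19 had no IgG peak. Upstream, at 54.4 to 54.5 Mb, stood 6 MYC-tag peaks and no IgG peak. VOPP1, which is often amplified together with EGFR, held 13 MYC-tag and 8 IgG peaks. From 55.7 to 56 Mb the MYC-tag list had no peak and the IgG list had 1.

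**Figure D3:**
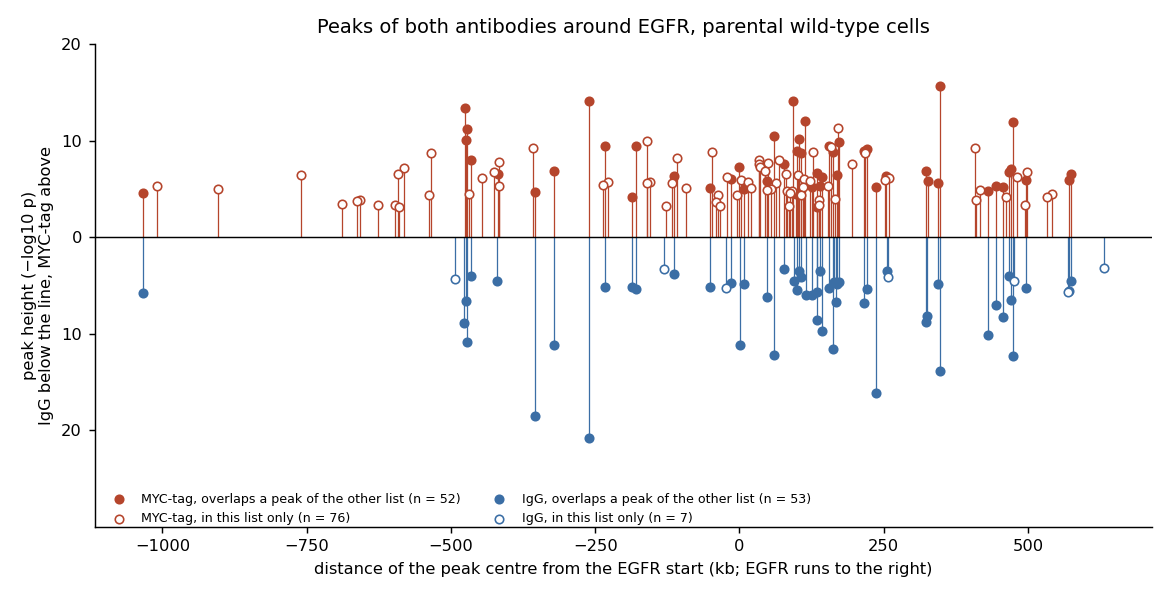
Height of each peak in −log10 p (vertical, MYC-tag upward and IgG downward) by the distance of its centre from the EGFR start in kb (horizontal), with filled points for peaks that overlap the other list and open points for peaks of 1 list only. Open points are 76 of 128 above the line and 7 of 60 below it.

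Around EGFR, most MYC-tag peaks without an IgG partner lay within 10 kb of an IgG peak. The 76 such peaks were a median of 4.13 kb from the nearest IgG peak, and 46 of them were within 10 kb. The other 776 MYC-tag-only peaks were a median of 298 kb away, and 72 were within 10 kb. Unshared MYC-tag peaks around EGFR were lower and narrower than shared ones, with a median height of 5.56 against 6.73 and a median width of 688 against 1178 bp. Their heights ran from 3.15 to 11.3, so they overlapped those of shared peaks, which ran from 3.14 to 15.6.

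Single positions within EGFR differed in both directions. The highest MYC-tag peak in the gene, 7:55177998-55180736 (GRCh37, as all peak positions), had −log10 p of 14.1 and 14.2 in its replicates, and the IgG peak inside it had 4.56 and 7.67. At 7:55200382-55201829 the MYC-tag values were 12 and 15.3, with an IgG height of 5.98. At 7:55145222-55147579 the order was turned, with MYC-tag values of 10.8 and 10.4 and IgG values of 12.2 and 15. The peak at 7:55257002-55257991 had 11.3 and 12.5 with MYC-tag and no IgG peak in parental cells. It was nevertheless in both lists of resistant wild-type cells, at heights of 7.69 with MYC-tag and 7.84 with IgG. The peak over the EGFR start, 7:55085323-55088138, had MYC-tag values of 16.9 and 7.26 and IgG values of 11.2 and 24.2, which overlap.

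Of the 10 highest shared positions, ranked by the lower of their 2 heights, 6 stood on gene starts, taken here as within 2 kb of a start. LANCL2, which encodes a lanthionine synthetase-like protein, had MYC-tag values of 15.6 and 34.4 and IgG values of 13.9 and 46.2 at 7:55433138-55434657. SEC61G, a subunit of the channel that moves proteins into the endoplasmic reticulum, had the highest peak of the IgG list. Its values were 20.8 and 27.3 with IgG and 14.1 and 15.4 with MYC-tag, at 7:54826433-54827149. VSTM2A, a secreted protein gene, had 13.4 and 17.4 with MYC-tag and 8.91 and 17.8 with IgG. In the neighbourhood list of 14 genes around EGFR, both antibodies had a peak at the same number of starts, 4, namely VSTM2A, SEC61G, EGFR and LANCL2.

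Chromosome 12 held the other group of strong shared starts. B4GALNT1, a ganglioside synthase, had MYC-tag values of 14.3 and 24.1 and IgG values of 11.3 and 21.6 at 12:58025479-58027161, with summits 25 bp apart. TBK1, a kinase of innate immune signalling, had 12.6 and 23.6 with MYC-tag at 12:64845642-64846409 and 6.09 and 28.4 with IgG. RASSF3, a Ras-association domain gene, had heights of 8.42 and 7.15 with MYC-tag and IgG, and TBC1D30, a Rab GTPase-activating protein gene, had 8.27 and 11. ARHGEF25, which encodes a guanine nucleotide exchange factor, had 12.7 and 20.5 with IgG over its start and 19.97 and 6.82 in the MYC-tag peak that overlapped it. Replicate values of the antibodies overlapped at LANCL2, B4GALNT1, VSTM2A and TBK1, and at SEC61G both IgG values were above both MYC-tag values.

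CDK4, the cyclin-dependent kinase that drives entry into S phase, was the highest MYC-tag peak outside the EGFR region without an IgG peak. It had values of 12.8 and 12.4 at 12:58145799-58146522, over the start. The resistant wild-type cells had a peak there with MYC-tag, at a height of 13.3, and also with IgG, at 8.45. The MYC-tag lists of METTL7A cells held it too, at 6.76 in parental and 26.3 in resistant cells. IgG in turn had a peak of its own nearby at 12:58049462-58049996, with values of 10.8 and 9.46. In the 57 to 59 Mb of chromosome 12 around CDK4, the antibodies had 16 and 15 peaks, of which 8 and 10 were shared.

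The 157 overlapping pairs showed no common direction of height. A MYC-tag peak can overlap more than 1 IgG peak, so pairs are counted rather than peaks. The 2 heights of a pair come from lists without a common scale. MYC-tag was the higher in 83 of 157 pairs, 32 of 54 around EGFR and 51 of 103 elsewhere. The summits were a median of 153 bp apart, within 100 bp in 61 pairs and within 500 bp in 133. Spearman's rank correlation between the heights of a pair was 0.0602 around EGFR and 0.286 elsewhere, across pairs that share their libraries. The pair most in favour of IgG, 7:54730337-54733590, had MYC-tag values of 4.62 and 32.3 and IgG values of 18.5 and 43.7. Outside the EGFR region the pair most in favour of MYC-tag, named after its values were seen, was at RDH10, a retinol dehydrogenase gene on chromosome 8, with 10.4 and 15 with MYC-tag and 3.68 and 12.8 with IgG. In both, the replicates of at least 1 antibody lay further apart than the 2 heights did.

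**Figure D4:**
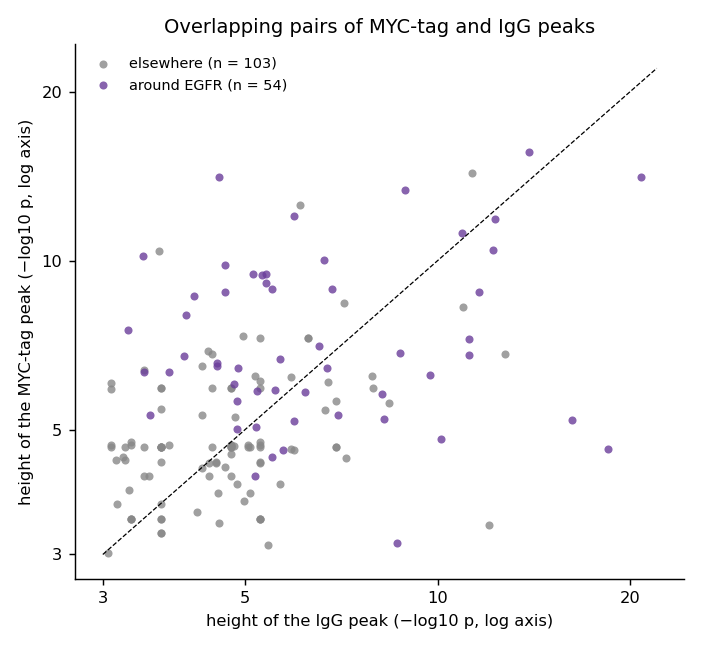
Height of the MYC-tag peak (vertical) against height of the IgG peak (horizontal), both in −log10 p on log axes, for the 157 overlapping pairs, with purple points for 54 to 56 Mb of chromosome 7, grey points for other places and a dashed line for equal heights. Points lie on both sides of the line, 83 of them above it.

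Outside the EGFR region, peaks of 1 antibody only were mostly low and thinly spread. The 776 MYC-tag-only peaks had a median height of 4.14 and the 1281 IgG-only peaks 3.70. Among the highest MYC-tag-only peaks after CDK4 were 2 in DTX3, a ubiquitin ligase gene beside ARHGEF25, with heights of 10.3 and 8.04. In resistant wild-type cells both positions also had an IgG peak, at 10.0 and 6.84, beside MYC-tag heights of 5.72 and 10.7. Another MYC-tag-only peak lay in MNT, a partner of MAX that represses transcription. It had values of 8.34 and 7.82 at 17:2296718-2297326, a position that no other list held. A cluster at 11 to 12 Mb of chromosome 6 held 14 MYC-tag peaks and 2 IgG peaks, both shared. The cluster was also larger with MYC-tag in resistant wild-type cells, 30 peaks against 13 with IgG. Other busy places leaned to IgG, such as 139 to 140 Mb of chromosome 9 with 18 IgG and 5 MYC-tag peaks, of which 1 in each was shared.

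The highest IgG-only peaks outside the EGFR region included peaks within 2 kb of the starts of HBB, PIK3R1 and the zinc-finger gene ZNF71, though not always over the start itself. These genes were placed after their peaks were seen. HBB, the beta-globin gene, had IgG values of 16.2 and 13.1 at 11:5246191-5247254. It was absent from both resistant wild-type lists and present in 3 lists of METTL7A cells, at heights of 4.63, 5.98 and 13. PIK3R1, the regulatory subunit of PI3-kinase, had 10.5 and 11.3 at 5:67510809-67512562, and the resistant wild-type lists held it at 4.47 with MYC-tag and 7.02 with IgG. ZNF71 had 8.68 and 7.90, so the IgG list had high peaks of its own.

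Genes tied to MYC are given in full, without a share of all gene starts to set them against. Of 6 placed genes of the MYC family and its partners (MYC, MYCN, MYCL, MAX, MNT and MLX), 1 had a MYC-tag peak at the start and none had an IgG peak there. That gene was MYC itself, with low values of 3.52 and 3.39 at 8:128749909-128750481. The order was turned in resistant wild-type cells, where 1 of the 6 had a MYC-tag peak at the start and 3 had an IgG peak there. Of 15 known MYC target genes, 2 had a MYC-tag peak at the start, CDK4 and NCL, and none had an IgG peak there. With gene bodies included, 1 of the 15 had an IgG peak. In resistant wild-type cells, 2 of the 15 had a MYC-tag peak at the start and 1 had an IgG peak there. NCL, which encodes nucleolin, had values of 4.02 and 5.04. NPM1, ODC1, LDHA, CAD, NME1, EIF4A1, PTMA, HSPD1, TERT, FBL, NOP56, RPL3 and CCND2 had no MYC-tag peak at the start. In a list with a lowest height of 3.0 and unknown depth, a missing peak says only that none was matched in both replicates.

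The other lists offered peaks that had no part in choosing these. Of all MYC-tag peaks, 18.7% recurred in the MYC-tag list of resistant wild-type cells and 17% in its IgG list, 2767 and 2529 peaks long. In the MYC-tag lists of METTL7A cells 16.6% recurred in parental and 16% in resistant cells. For all IgG peaks the same 4 shares were 12.6%, 15%, 8.24% and 9.21%. The 2 METTL7A IgG lists, of 70 and 96 peaks, are too short to compare. Shared peaks recurred most often, 48.4% of 153 MYC-tag peaks in the resistant MYC-tag list and 45.8% in the resistant IgG list. These shares join 2 places. In the resistant MYC-tag list 86.5% of the 52 around EGFR recurred, and 28.7% of the 101 elsewhere. Around EGFR, 76.9% and 69.2% of the shared peaks recurred in the METTL7A MYC-tag lists of parental and resistant cells, close to 73.7% and 67.1% of the MYC-tag-only peaks.

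MYC-tag-only peaks behaved differently around EGFR and elsewhere. Around EGFR, 51 of 76 recurred in the resistant wild-type MYC-tag list (67.1%, interval 55.4 to 77.5%) and 26 of 76 in the resistant IgG list (34.2%, interval 23.7 to 46.0%). Those lists held 139 and 106 peaks in the region. In METTL7A MYC-tag lists 73.7% and 67.1% of the 76 recurred. Elsewhere, 63 of 776 recurred in the resistant MYC-tag list (8.12%, interval 6.29 to 10.3%) and 75 in the resistant IgG list (9.66%, interval 7.68 to 12%). For the 1281 IgG-only peaks elsewhere, 7.96% (interval 6.54 to 9.58%) recurred in the resistant MYC-tag list and 11% (interval 9.35 to 12.9%) in the resistant IgG list. Away from EGFR the resistant IgG list thus held the larger share of both kinds of peak. The same peaks were looked up in both lists, so overlap of the intervals is not a test. A preference for the list of the same antibody was not tested.

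**Figure D5:**
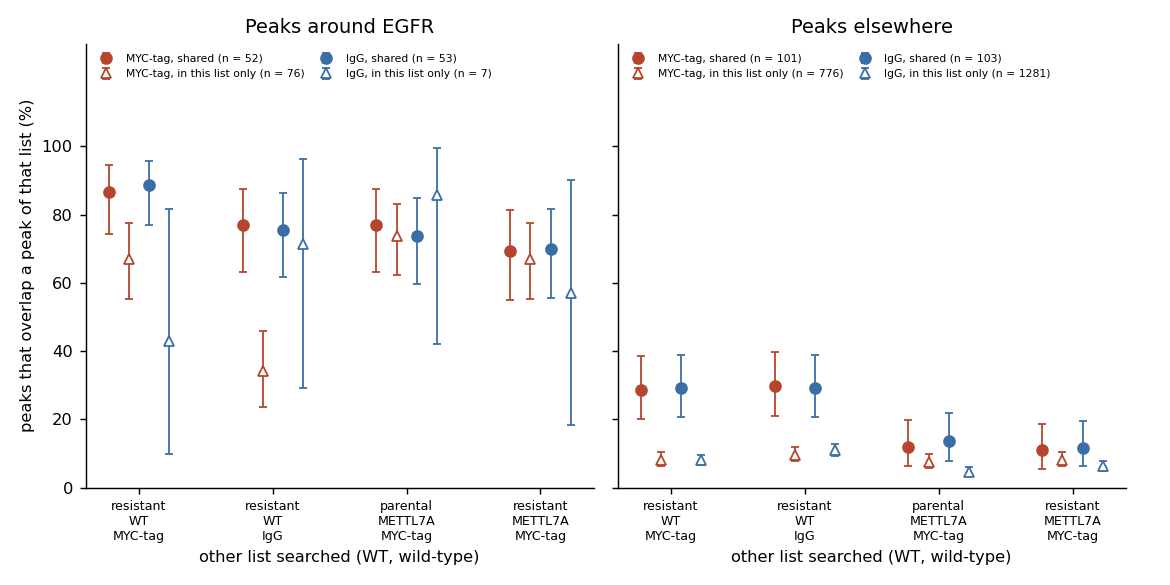
Percentage of parental wild-type peaks that overlap a peak of another list (vertical), for 4 other lists (horizontal), around EGFR on the left and elsewhere on the right, with filled circles for peaks shared by both antibodies, open triangles for peaks of 1 list only, red for MYC-tag, blue for IgG and bars for exact 95% binomial intervals. On the left the open red triangle falls from 67.1% in the resistant MYC-tag list to 34.2% in the resistant IgG list, and on the right the open triangles stay at 11% or less.

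The named shared positions varied in the lists where they recurred. The peaks given above over the starts of LANCL2, SEC61G, VSTM2A, B4GALNT1, TBK1, RASSF3 and TBC1D30 were in both lists of resistant wild-type cells and in neither MYC-tag list of METTL7A cells. They were also absent from the METTL7A IgG lists, which are too short for an absence to be informative. A lower shared pair within 2 kb of the LANCL2 start, at 7:55430428-55431524, was in the MYC-tag list of parental METTL7A cells, at a height of 7.93, and in the resistant wild-type list of IgG only. The IgG peak over the ARHGEF25 start was in both resistant wild-type lists and in both MYC-tag lists of METTL7A cells, at 4.33 and 3.44 in the latter. The peak at 7:55200382-55201829 within EGFR was likewise in both resistant wild-type lists, at 8.08 with MYC-tag and 10.2 with IgG, and in both MYC-tag lists of METTL7A cells, at 20.8 and 16.9. The VOPP1 peak at 7:55559758-55560602, shared in parental cells with heights of 11.9 and 12.3, was in both as well, at 11 and 19.3, and in neither resistant wild-type list. These positions were named for their height, and whether starts as a group differ from gene bodies was not tested.

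A small set of MYC-tag peaks appeared in every MYC-tag list and no IgG list. Of the 1005 peaks, 746 were in none of the 4 IgG lists, and 88 were in all 4 MYC-tag lists. Of the 88, 68 were also in an IgG list and 20 were not. Among the 20, 16 lay around EGFR, the highest at 7:55244764-55246270 with values of 9.32 and 13.4. Its heights in the other MYC-tag lists were 9.27 in resistant wild-type cells and 10.8 and 14.7 in METTL7A cells. The remaining 4 were 4:190515080-190515840, 6:11786298-11787108, 16:85419205-85419905 and the peak in MYC. The MYC peak had heights of 3.39 here, 5.10 in resistant wild-type cells and 5.59 and 6.87 in METTL7A cells, on scales that are not common to the lists. Presence in 4 lists made with the same antibody is a description, and the METTL7A lists also carry the tagged protein.

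A few peaks were wide or had replicates that disagreed. The widest MYC-tag peak, 7:55540593-55545315 in VOPP1, spanned 4723 bp with values of 5.22 and 11.7, and the widest IgG peak, 7:55542372-55545112, lay within it. The largest gap between MYC-tag replicates was 54.6 against 6.23 at X:108297382-108297836, which was in no other list. For IgG the largest gap was 16.2 against 62.6 at 7:55321989-55323239, a shared position. Heights taken as the lower of the replicates leave out the higher values at such positions.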

How the data were processed

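ChIP-seq was carried out in 24 samples, of which the 4 MYC-tag and IgG samples of parental wild-type cells are described here. Per the submitters' processing notes, which state neither role nor order, the build was GRCh37 and the tools included MACS2 2.2.7.1, Bowtie2 2.4.2, bedtools 2.30, deepTools 3.5.1, SAMtools 1.16, FastQC and Trimmomatic. The sources used here do not give the control library, duplicate removal or blacklist filters. The authors deposited 1 list of 20 columns for each group of 2 replicates, in IDR layout, whose values used here are −log10 p-values of each replicate and the −log10 of the global IDR. The lists hold no read totals, so precision is given only as exact (Clopper-Pearson) 95% intervals of shares.

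Overlaps of at least 1 bp, heights, widths and distances were computed with Python 3.11.15, NumPy 2.4.6, pandas 2.3.3 and SciPy 1.17.1, and figures were drawn with Matplotlib 3.10.9. The overlap counting was tested on simulated data. Peaks were named by height (10 highest of each list, 10 highest shared, 8 highest unshared outside the EGFR region), width and replicate gap (3 each), by preset regions, and by gene lists. The 56 genes were placed by general knowledge of their GRCh37 positions, since no annotation of that build was used, and MXD1 and MGA were not placed. Of these genes, 12 were placed after peaks at their starts were seen. Promoter letters came from RefSeq GRCh38.p14. The members and lists were chosen with earlier results of these data known. Input samples were not analysed here. A peak that the naming rule picked is not reported here.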

Additional observations from a re-analysis of the deposited data

How the results depend on the processing

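Of 40 alternatives over 11 values, 5 stayed within the 95% interval of the main value and 35 left it. The interval of the main median IgG height ran from 3.70 to 3.70, so any other value counted as having left it. A replicate taken alone cannot give a median height below that of the lower of both. The share of MYC-tag peaks that overlap an IgG peak was 10.8% when the overlap had to cover 50% of both peaks, 12.6% with the coordinates of the first replicate, 20.2% at a height of 5 or more, 30.8% at a global IDR of 0.05 or less and 11.5% without 54 to 56 Mb of chromosome 7. For IgG peaks these were 7.55%, 9.07%, 19.4%, 25.8% and 7.44%. The EGFR region share of MYC-tag peaks was 38.4% at a height of 5 or more, 69.2% at the IDR limit and 4.14% with peaks within 10 kb joined, against 15.1%, 51.6% and 2.27% of IgG peaks. It was higher for MYC-tag in each of these. The MYC-tag to IgG ratio of peak numbers was 0.696, and became 0.960 at a height of 5, 1.42 at a height of 9, 0.839 at the IDR limit and 0.634 without the EGFR region, so which list is longer turned between heights 5 and 9. Heights of the 2 lists are not on a common scale, so an equal height is not an equal limit in both. The median MYC-tag height was 4.67 in the first and 4.71 in the second replicate alone and 4.28 without the region, and the median IgG height was 4.45 and 4.75 in the replicates alone.

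MYC-tag-only peaks recurred in the resistant wild-type MYC-tag list at 7.98% with 50% overlap, 37.4% from a height of 5 and 8.12% without the region, and in the resistant IgG list at 7.39%, 28.2% and 9.66%. Leaving out the EGFR region thus turned which resistant list matched more of them. IgG-only peaks recurred at 4.74% and 16.9% in the MYC-tag list, with 50% overlap and from a height of 5, and at 8.0% and 20.2% in the IgG list. Leaving out a replicate was not possible, since each list joins both. No paired analysis was possible because each list combines both replicates of a group and no test was made. The cause of these shifts was not tested.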
